A study of Mus musculus with 6 samples.

Results

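Hyaluronan is a long unbranched sugar polymer of the extracellular matrix, and the genes described here make it, cut it or bind it. The set held 10 mouse genes: the synthases Has1, Has2 and Has3, the breakdown genes Hyal1, Hyal2 and Cemip, the receptor gene Cd44, the matrix modifier gene Tnfaip6, and the hyaluronan-binding proteoglycan genes Vcan and Acan. A gene was measured where the array annotation gave a probe set that names it and no other gene. By that rule 9 of the 10 were measured, each by 1 probe set, among 19938 genes in all. Hyal1 was not, because its probe sets also name Naa80. The set was selected on function and, in part, on the measured difference of Cemip between the groups, already known as a leading fall of these data, so the Cemip difference is given as a description with no test. The other members were listed for their function, with earlier results of the same comparison in view, and their adjusted p-values describe single genes and lend no support to the set.

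RNA came from MC3T3-E1, a pre-osteoblast line from newborn C57BL/6 mouse calvaria, the bone of the skull vault. The differentiated group held 3 arrays of cells that were grown to confluence and then kept for 14 days in DMEM with 10% serum, 1 mM sodium pyruvate, 0.1 µM dexamethasone (a synthetic glucocorticoid), 0.2 mM ascorbic acid-2-phosphate and 10 mM β-glycerophosphate. The undifferentiated group held 3 arrays of the same line in α-MEM free of ascorbic acid, with 10% serum. Base medium, confluence, time and the induction compounds differed together and cannot be told apart, and one cell line stands behind all 6 arrays. The replicates are called independent without a statement of what separated them. The p-values weigh each group difference against the spread between samples within the groups, and that spread may be technical.

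Hyaluronan is built at the plasma membrane by the synthases, which join UDP-glucuronic acid and UDP-N-acetylglucosamine in alternation and push the growing chain out of the cell. Hyaluronidases and Cemip shorten the chain, and lysosomal glycosidases take the fragments apart. Versican and aggrecan, the products of Vcan and Acan, hang along the chain as bulky proteoglycans, and in developing bone versican belongs to the early matrix while aggrecan is typical of cartilage.

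Values are log2 expression centred on each probe set's median over the 6 arrays, so they show differences between arrays and not how strongly a gene is expressed, and no member can be called present or absent. Where the groups lie fully apart, this centring places the innermost array of each group at equal distances on either side of 0. Differences are differentiated minus undifferentiated with limma's standard error (SE, 3 arrays per group), and a gene was called at an adjusted p under 0.05, with Benjamini-Hochberg adjustment over all genes. Each value averages the cells of a culture, so fewer cells of a kind and less RNA per cell cannot be told apart. Of 6 osteoblast markers, 4 were measured, and on centred values their differences cannot verify the labelled cell type. The bone sialoprotein gene Ibsp (3.12 ± 0.09, adjusted p = 4.67e-08) and the alkaline phosphatase gene Alpl (0.96 ± 0.08, adjusted p = 1.49e-05) were higher. Col1a1 (-0.40 ± 0.07, adjusted p = 0.00146) was lower. Sp7 stood at -0.40 ± 0.07, with a call that was lost after cyclic loess scaling (adjusted p = 0.106).

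Among the 8 members given a test, Has2 and Vcan fell, Tnfaip6 rose, and Has1, Has3, Hyal2, Cd44 and Acan did not pass. Over all genes, 35.5% were called in either direction, 16.4% higher and 19.1% lower, and nothing is read from the members' count beside these shares because the comparison took part in choosing the set. Has2 and Vcan were the tested members called with a difference of at least 2-fold, where 4.81% of all genes were. The groups did not overlap for 5 of the 9 (Cemip, Has2, Vcan, Tnfaip6 and Cd44), where 46.2% of all genes had groups that did not overlap. The median log2 fold change was -0.08 over the 9 members, -0.07 without Cemip, and 0.02 over all genes.

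**Figure D1:**
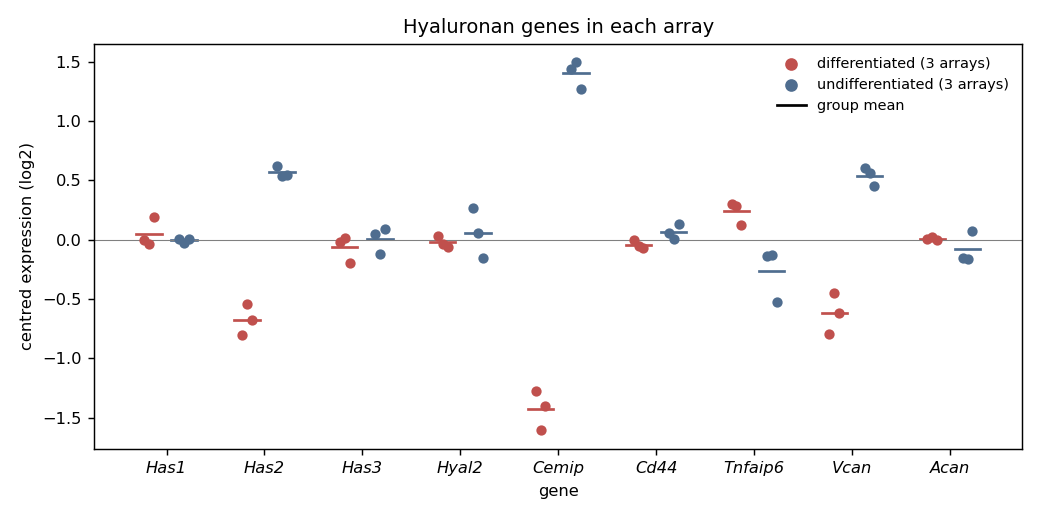
Centred log2 expression of the 9 measured hyaluronan genes in each of 6 arrays (points), with group means (lines), differentiated left of undifferentiated for each gene. Cemip, Has2 and Vcan lie lower in all 3 differentiated arrays, Tnfaip6 lies higher, and the points of Has1, Has3, Hyal2 and Acan overlap between groups.

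Of the 3 synthase genes, Has2 alone was called. Has2, which encodes the synthase that mouse embryos need for heart development, had values of -0.80, -0.54 and -0.68 in differentiated arrays and 0.62, 0.54 and 0.55 in undifferentiated arrays. All differentiated arrays were low and all undifferentiated arrays high, with no overlap. The difference was -1.24 ± 0.07 on the log2 scale, which is 2.37-fold lower in differentiated cells (adjusted p = 1.73e-06).

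Has1 had values of -0.0054, -0.039 and 0.19 in differentiated arrays and 0.0054, -0.029 and 0.010 in undifferentiated arrays. The groups overlapped, and differentiated replicate 3 alone stood above the other arrays. Its difference was 0.05 ± 0.07 (95% interval -0.10 to 0.21, adjusted p = 0.615), and without that array it was -0.017. Has3 had values of -0.017, 0.017 and -0.19 in differentiated arrays and 0.049, -0.12 and 0.094 in undifferentiated arrays. Here too the groups overlapped, with a difference of -0.07 ± 0.08 (95% interval -0.25 to 0.11, adjusted p = 0.556). It was -0.0072 without differentiated replicate 3 and -0.14 without undifferentiated replicate 2. Both intervals end well short of the Has2 difference, but the differences between the synthase genes were not tested.

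Cemip encodes a hyaluronan-binding protein that human skin fibroblasts need to break down the polymer. Its values were -1.27, -1.61 and -1.40 in differentiated arrays and 1.44, 1.495 and 1.27 in undifferentiated arrays. No differentiated array came near an undifferentiated one. The group means differed by -2.83 ± 0.09, a 7.11-fold lower signal in differentiated cells. A smaller difference in size was seen for 99.8% of genes, but this fall took part in choosing the set, so the rank lends no support. Within the groups the SD was 0.169 in differentiated and 0.117 in undifferentiated arrays.

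Hyal2 encodes a membrane-anchored hyaluronidase that cuts long chains into fragments. Its values were 0.035, -0.035 and -0.061 in differentiated arrays and 0.27, 0.055 and -0.16 in undifferentiated arrays. The undifferentiated arrays spread on both sides of the differentiated ones. The difference was -0.08 ± 0.10 (95% interval -0.30 to 0.15, adjusted p = 0.619), and it turned to 0.030 without undifferentiated replicate 1. For Hyal1, the lysosomal hyaluronidase gene, both probe sets that name it together with Naa80 were higher in differentiated arrays on average, by 0.42 and 0.20. The groups did not overlap in either, with 0.11 to 0.39 in differentiated and -0.22 to -0.11 in undifferentiated arrays for the first, and 0.022 to 0.16 in differentiated and -0.24 to -0.022 in undifferentiated arrays for the second. These values cannot be assigned to Hyal1.

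Cd44 encodes the main cell-surface receptor for hyaluronan. Its values were -0.0035, -0.050 and -0.073 in differentiated arrays and 0.056, 0.0035 and 0.13 in undifferentiated arrays. The groups did not overlap, but the nearest arrays were almost level. The difference of -0.11 ± 0.06 did not pass (95% interval -0.23 to 0.02, adjusted p = 0.190). The probe set carries transcripts of several Cd44 isoforms in its annotation, so a change in splicing may not be seen here.

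Tnfaip6 encodes TSG-6, a secreted protein that binds hyaluronan and transfers heavy chains of inter-alpha-inhibitor onto it. Its values were 0.30, 0.29 and 0.13 in differentiated arrays and -0.14, -0.13 and -0.53 in undifferentiated arrays. Every differentiated array was higher than every undifferentiated one, and undifferentiated replicate 3 lay below the rest. The difference was 0.50 ± 0.11, a 1.42-fold higher signal in differentiated cells (adjusted p = 0.00575), and it was 0.37 without that replicate (adjusted p = 0.00366).

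Vcan encodes versican, the large proteoglycan of provisional matrix. Its values were -0.79, -0.45 and -0.62 in differentiated arrays and 0.60, 0.56 and 0.45 in undifferentiated arrays. The groups lay apart, and the difference was -1.16 ± 0.09, which is 2.23-fold lower in differentiated cells (adjusted p = 9.34e-06). Vcan and Has2 were the closest pair of members, with a Euclidean distance of 0.151 between their values over the 6 arrays. In both, replicate 1 was the lowest and replicate 2 the highest differentiated array. With so few arrays, this closeness rests mostly on group differences of like size, and a link between Vcan and Has2 was not tested.

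Acan, the aggrecan gene of cartilage, had values of 0.0018, 0.022 and -0.0018 in differentiated arrays and -0.15, -0.16 and 0.072 in undifferentiated arrays. The groups overlapped through undifferentiated replicate 3, and the difference was 0.09 ± 0.07 (95% interval -0.07 to 0.25, adjusted p = 0.403). Without that array it was 0.16 (adjusted p = 0.0512). Of 6 chondrocyte markers, the cartilage collagen gene Col2a1 was lower (-1.01 ± 0.06, 2.02-fold), Sox9 (0.59 ± 0.07) and Comp (0.33 ± 0.07) were higher, and 3 did not pass, with a median of 0.09. Their part in the Acan and Vcan values was not tested.

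**Figure D2:**
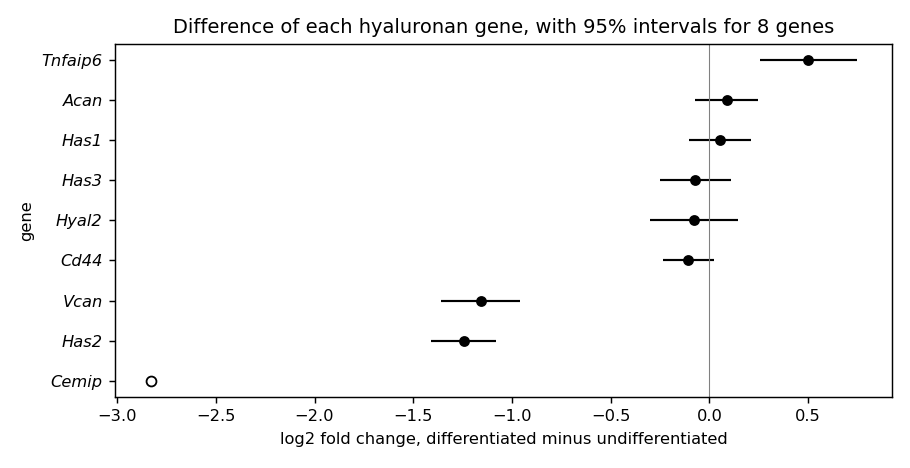
Log2 fold change of each measured hyaluronan gene, differentiated minus undifferentiated, with limma's 95% interval for 8 genes; Cemip (open point) has no interval because its fall took part in choosing the set. The intervals of Has2 and Vcan lie below 0 and that of Tnfaip6 above 0, while those of the other 5 genes include 0.

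Cemip, Vcan and Tnfaip6 are the members that stood furthest from 0 and had an entry in a table of RefSeq promoters (GRCm38.p6, 250 bases before to 50 after the start site). In all, 8 of the 10 members were matched. They are shown so that the starts of the genes that were lower and of the one that was higher can be compared. Capitals mark matches, on either strand, to TATAAA (the TATA box), AGAACA (a single arm of the glucocorticoid receptor's palindrome), TGANTCA (the AP-1 site) and GGGCGG (the GC box), and no matches overlap. The Cemip window is chr7:84086456-84086755 on the minus strand, the Vcan window chr13:89742463-89742762 on the minus strand, and the Tnfaip6 window chr2:52037863-52038162 on the plus strand, all read 5′ to 3′ along the gene.
Cemip promoter: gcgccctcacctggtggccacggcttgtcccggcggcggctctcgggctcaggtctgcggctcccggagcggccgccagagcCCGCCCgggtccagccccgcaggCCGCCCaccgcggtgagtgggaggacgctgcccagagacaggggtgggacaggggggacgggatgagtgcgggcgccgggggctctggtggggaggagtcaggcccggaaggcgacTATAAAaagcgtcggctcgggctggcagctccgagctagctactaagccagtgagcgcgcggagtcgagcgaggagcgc
Vcan promoter: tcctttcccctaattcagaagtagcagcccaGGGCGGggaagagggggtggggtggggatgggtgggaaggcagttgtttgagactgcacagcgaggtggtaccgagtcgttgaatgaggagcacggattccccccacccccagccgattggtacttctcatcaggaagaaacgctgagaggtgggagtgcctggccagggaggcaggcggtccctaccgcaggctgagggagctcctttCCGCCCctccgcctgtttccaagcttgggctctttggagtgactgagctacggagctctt
Tnfaip6 promoter: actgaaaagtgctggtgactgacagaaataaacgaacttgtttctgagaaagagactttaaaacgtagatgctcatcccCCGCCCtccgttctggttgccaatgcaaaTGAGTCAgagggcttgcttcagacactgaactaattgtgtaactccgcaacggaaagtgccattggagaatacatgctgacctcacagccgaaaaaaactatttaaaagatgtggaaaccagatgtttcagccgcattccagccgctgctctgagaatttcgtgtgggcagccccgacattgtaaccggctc

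The Cemip window held a TATA box beginning 29 bases before the start site, which 13.6% of the 32851 promoters of the table hold somewhere in the same 300 bases, and 2 GC boxes, a motif found in 35.7%. The Vcan window held 2 GC boxes and the Tnfaip6 window 1. The Tnfaip6 window alone of the 3 held an AP-1 site (7.81% of promoters). None of the 3 held AGAACA, the glucocorticoid receptor letters, which 19.0% of promoters hold and which was found once in the Has1 window. Base composition differed between the 3 printed windows, at 73.7% G and C for Cemip, 61.0% for Vcan and 47.0% for Tnfaip6. Among tested members without a call it was 74% for Acan, 58.3% for Hyal2, 58% for Cd44 and 57% for Has1. The motifs are matches of letters and say nothing of binding.

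Around the members, 6 lists of other genes were examined, with 59 of 61 genes measured. The lists cover hyaluronan supply, breakdown, receptors and matrix partners, proteases of its proteoglycans, and partners of Cd44. The proteases and Cd44 partners do not act on hyaluronan itself, so the counts are not of hyaluronan genes alone. In all, 17 listed genes were higher, 11 were lower and 31 did not pass, beside 16.4% higher and 19.1% lower among all genes. Their median was 0.08. Of the 59, 10 were called with a difference of at least 2-fold (4.81% of all genes), and the groups of 34 did not overlap (46.2% of all genes). The lists were drawn up with earlier results of these data known.

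**Figure D3:**
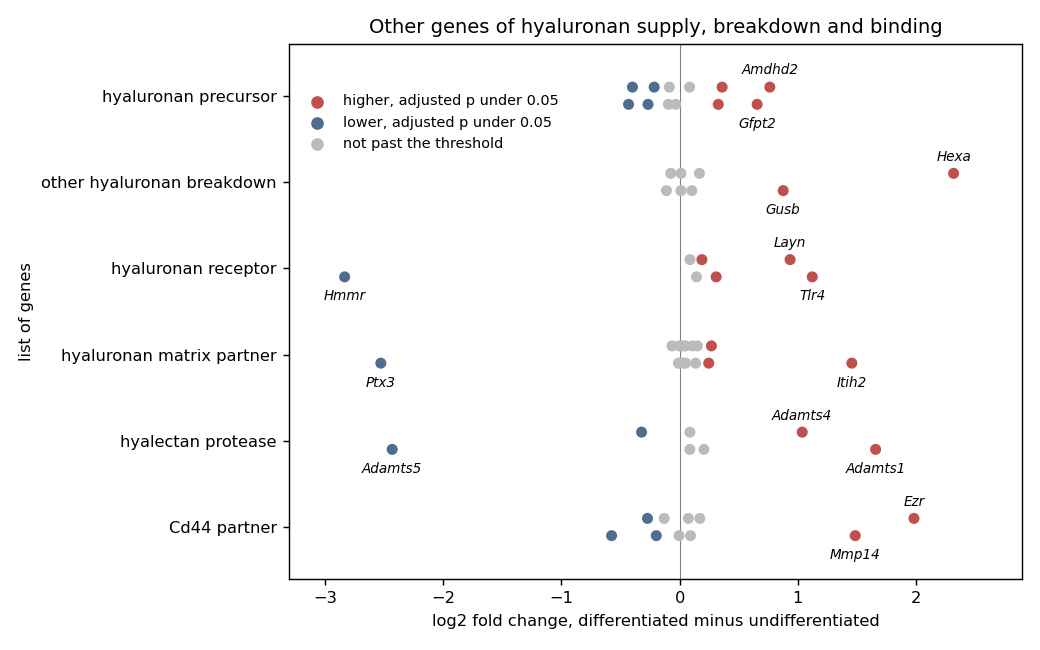
Log2 fold change, differentiated minus undifferentiated, of the 59 measured genes in 6 lists around hyaluronan, each point a gene, coloured by its call at an adjusted p under 0.05. Hmmr, Ptx3 and Adamts5 lie at -2.83, -2.53 and -2.43, and Hexa and Ezr at 2.32 and 1.98.

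Genes of precursor supply split evenly (median -0.06): of 12 measured, 4 rose, 4 fell and 4 had no call. Ugdh, which makes the UDP-glucuronic acid used by the synthases, fell with values of -0.23, -0.19 and -0.16 in differentiated arrays and 0.21, 0.23 and 0.16 in undifferentiated arrays. Its difference was -0.40 ± 0.05, or 1.32-fold lower (adjusted p = 2.78e-04). On the hexosamine arm, Gfpt2, an isoform of the entry enzyme, rose (0.66 ± 0.08, adjusted p = 2.48e-04), while Gfpt1, the other isoform, was at -0.03 ± 0.05 (adjusted p = 0.703). Gnpnat1, which acetylates glucosamine 6-phosphate, fell (-0.43 ± 0.11, adjusted p = 0.0117), and both of its probe sets were lower. Pgm3, the next enzyme of that arm, also fell (-0.27 ± 0.06). The deacetylase Amdhd2, which takes the acetyl group off again, rose (0.76 ± 0.10, adjusted p = 2.40e-04), as did the salvage kinase Nagk (0.36 ± 0.07). The hexokinase Hk1 rose by 0.33 ± 0.05, but its pair of probe sets gave 0.58 and 0.08, the second of which did not pass. Pgm1 was called lower (-0.21 ± 0.07), and the call was lost without differentiated replicate 1 or 2 or undifferentiated replicate 1 or 3.

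Among 8 other genes listed for breakdown, 2 rose and 6 did not pass. Hexa, the α subunit gene of lysosomal β-hexosaminidase, had values of 1.15, 1.06 and 1.11 in differentiated arrays and -1.31, -1.27 and -1.06 in undifferentiated arrays. That is 4.98-fold higher in differentiated cells (2.32 ± 0.07, adjusted p = 5.32e-08). The lysosomal β-glucuronidase gene Gusb rose as well (0.88 ± 0.05, adjusted p = 2.11e-06). Together these enzymes take single sugars off the ends of hyaluronan fragments, though they also act on other substrates. The hyaluronidase family genes Hyal3, Hyal4, Hyal5, Hyal6 and Spam1, not all of which are known to cut hyaluronan, did not pass. Cemip2, the membrane-bound relative of Cemip, was at 0.17 ± 0.07 (adjusted p = 0.114), and its values of 0.18, -0.015 and 0.086 in differentiated arrays and -0.077, -0.19 and 0.015 in undifferentiated arrays overlapped.

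Of 7 receptor genes, 4 were higher, 1 was lower and 2 did not pass (median 0.19). The pattern-recognition receptor gene Tlr4 rose (1.12 ± 0.07, 2.18-fold, adjusted p = 1.97e-06), and so did Layn, which encodes the transmembrane lectin layilin (0.93 ± 0.07, adjusted p = 6.14e-06), and Tlr2 (0.31 ± 0.06, adjusted p = 0.00397). Stab2, a scavenger receptor gene, was called higher at 0.19 ± 0.06, but not without differentiated replicate 1 or 3 or any one of the undifferentiated arrays. Tlr2 and Tlr4 are also expressed by macrophages. In a list of 6 macrophage markers, Cd68 (0.44 ± 0.10) and Cd14 (0.42 ± 0.05) were higher, 4 did not pass (Adgre1, Csf1r, Ptprc and Mpeg1, from -0.05 to 0.10), and the median was 0.08. Their part in the receptor values was not tested, and no marker can be placed at or near 0 on centred values.

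Hmmr, which encodes a hyaluronan-binding protein that also works on the mitotic spindle, fell with values of -1.48, -1.53 and -1.33 in differentiated arrays and 1.44, 1.38 and 1.33 in undifferentiated arrays (-2.83 ± 0.07, 7.13-fold lower, adjusted p = 1.84e-08). It was also the gene closest to Cemip among all measured. By Euclidean distance over the 6 centred values, the 5 nearest genes were Hmmr (0.269), Ect2 (0.322), Plk1 (0.329), Cdc25c (0.341) and Kif11 (0.352). All of them have known roles in cell division. The share of such genes among all falls of like size was not counted, and a tie of Cemip to cell division was not tested. With 2 groups and 6 arrays, this likeness rests mostly on the size of the group difference.

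**Figure D4:**
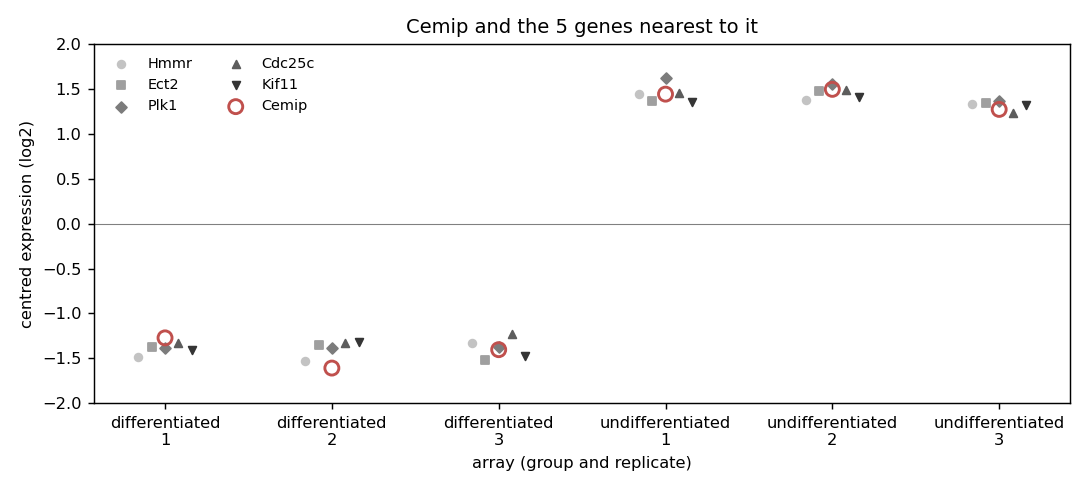
Centred log2 expression of Cemip (open circles) and of the 5 genes nearest to it by Euclidean distance (grey symbols) in each of the 6 arrays. All of these genes lie below -1.2 in differentiated and above 1.2 in undifferentiated arrays.

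Of 15 genes listed as matrix or binding partners of hyaluronan, 3 rose, 1 fell and 11 did not pass (median 0.05). Ptx3, the pentraxin gene whose product crosslinks hyaluronan in the mouse cumulus matrix together with TSG-6, fell, with values of -1.39, -1.13 and -1.26 in differentiated arrays and 1.27, 1.39 and 1.13 in undifferentiated arrays (-2.53 ± 0.09, 5.76-fold lower, adjusted p = 9.20e-08). Itih2, a heavy chain gene of inter-alpha-inhibitor, rose, with values of 0.71, 0.74 and 0.72 in differentiated arrays and -0.74, -0.75 and -0.71 in undifferentiated arrays (1.46 ± 0.05, 2.74-fold higher, adjusted p = 8.44e-08). The other heavy chain genes Itih1, Itih3, Itih4 and Itih5 lay between 0.00 and 0.05 and did not pass, and neither did Ambp, which encodes the bikunin chain of the same complex (-0.01 ± 0.08). The brain proteoglycan gene Bcan (0.25 ± 0.06, adjusted p = 0.00817) and Habp4 (0.27 ± 0.07, adjusted p = 0.0120) were higher by less. Hapln1, the cartilage link protein gene, was at 0.05 ± 0.05 (adjusted p = 0.518).

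Among 7 genes of ADAMTS proteases, several of which cleave versican and aggrecan, 2 rose, 2 fell and 3 did not pass (median 0.09). Adamts5 fell to values of -1.06, -1.25 and -1.25 in differentiated arrays, against 1.39, 1.28 and 1.06 in undifferentiated arrays (-2.43 ± 0.09, 5.39-fold lower, adjusted p = 1.63e-07). Adamts1 (1.66 ± 0.11, 3.16-fold, adjusted p = 5.32e-06) and Adamts4 (1.04 ± 0.07, 2.05-fold, adjusted p = 4.78e-06) rose. Adamts9 fell as well (-0.32 ± 0.05, adjusted p = 9.17e-04), a mean over 6 probe sets that ran from -0.53 to -0.05 with 4 past the threshold when each was tested on its own.

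Of 10 genes listed for work with Cd44 at the membrane or for the splicing of its transcript, 2 rose, 3 fell and 5 did not pass (median 0.03). Ezr, which encodes ezrin, a linker from Cd44 to actin, rose with values of 0.94, 0.97 and 0.98 in differentiated arrays and -1.11, -0.996 and -0.94 in undifferentiated arrays (1.98 ± 0.06, 3.95-fold higher, adjusted p = 4.67e-08). Of its relatives, the radixin gene Rdx fell (-0.58 ± 0.06, adjusted p = 9.50e-05) and the moesin gene Msn was at 0.07 ± 0.06 (adjusted p = 0.431). Mmp14, a membrane protease that can shed Cd44, rose (1.49 ± 0.05, 2.80-fold, adjusted p = 1.19e-07), while Adam17, a gene of another sheddase, fell (-0.27 ± 0.06, adjusted p = 0.00650). Adam10, also a sheddase gene, was at -0.13 ± 0.06 (adjusted p = 0.155). Nf2, which encodes merlin, was called at -0.20 ± 0.06, and not without differentiated replicate 1 or 3 or undifferentiated replicate 1 or 2.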

How the data were processed

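RNA from 3 differentiated and 3 undifferentiated samples was measured on 1-colour Affymetrix arrays, 1 per sample. Titles gave the group and the replicate number of each. The deposited values are log2 expression made with RMA, per the submitters' processing notes (version not given in the sources used here). The values themselves show that every probe set was centred on its median across arrays (tolerance 1e-06), so levels are lost and dim probe sets cannot be filtered out. A higher value was read as more RNA.

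Of 28856 probe sets, 21789 name 1 gene and were used, 1621 name several and 5446 none. Symbols were updated by gene ID through RefSeq (GRCm38.p6, 21698 matched), and probe sets of a gene were averaged. limma (lmFit, eBayes, two-sided, no covariate) was fitted on all 19938 genes. The fit was tested on simulated data. R 4.3.3 and limma 3.58.1 were used. No depth applies to arrays, and their number limits the precision.

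Members and lists were chosen with earlier results of these data known. Named genes are all members, up to 4 called genes per list with the largest changes, Hmmr, Cemip2, Hapln1, Ugdh and Adamts5, the 5 genes nearest to Cemip, and the markers of the osteoblast list. Gfpt1, Pgm3, Nagk, Hk1, Pgm1, Stab2, Nf2, Msn, Adam10, Ambp, the remaining Itih and hyaluronidase genes and the macrophage, chondrocyte and endothelial markers were named after their values were seen. Genes of the lists outside the measured set are not reported here. Of the other lists of markers, 1 of 5 endothelial genes (median 0.13) and 1 of 6 adipocyte genes (median 0.05) were called, both higher. The endothelial one, Vwf, lost its call under 6 of the 14 alternatives (adjusted p = 0.121 after cyclic loess). Alternatives were quantile, array median and cyclic loess scaling, every probe set alone, the lowest-numbered probe set, array weights, robust eBayes, the replicate number as a block, and each array left out.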

Additional observations from a re-analysis of the deposited data

How the results depend on the processing

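The calls of Has2, Vcan and Tnfaip6 and the lack of one for Has1, Has3, Hyal2, Cd44 and Acan were kept under all 14 alternatives. Each measured member has 1 probe set, so testing every probe set or the lowest-numbered one could not change its difference. Quantile and cyclic loess scaling were run on the centred values, not on intensities. Has2 ranged from -1.37 to -1.18, Vcan from -1.24 to -1.07, Tnfaip6 from 0.37 to 0.57 (adjusted p from 9.60e-04 to 0.0260) and Cemip, given no test, from -3.38 to -2.74. The direction turned for Has1 without differentiated replicate 3 (-0.017, with -0.017 to 0.098 over the arrays left out) and for Hyal2 without undifferentiated replicate 1 (0.030, with -0.18 to 0.030). Leaving out an array left 6003 to 7523 genes called of 19938 (7070 with all arrays) and 25 to 28 of the 59 genes in the 6 lists (28 with all arrays). Where an array was left out, 2 arrays of that group remained. Adamts9 was not called from its lowest-numbered probe set. Adamts20 (0.21 with all arrays, not past the threshold) was called under 5 alternatives, quantile and cyclic loess scaling, array weights, the replicate block and without differentiated replicate 2. The replicate number as a block gave 7162 genes called, the same 3 tested members and 29 of the 59 listed genes. Same-numbered arrays correlated in their deviations from the group means, across genes, at -0.00133, 0.0691 and 0.162. The value for replicate 3, 0.162, was the highest of all pairs, but not every array correlated best with its own number. With 3 arrays per group, these correlations cannot settle whether same-numbered arrays share more than a number. No filter on dim probe sets and no background correction could be run on centred values, and signal over background is unknown.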
